A study of Homo sapiens with 8 samples.

Results

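The transcripts of human embryonic stem cells kept for 3 days in co-culture (D3_Co, replicates 1 and 2) were compared with those of the same cells kept for 3 days in separate culture (D3_Control, replicates 2 and 3). These 4 libraries, out of 8 in the series, make the only contrast in which both sides were taken on the same day, and they were chosen by their titles. All came from H9, an established human embryonic stem cell line, at passages 41 to 50. The reading of Co and Control as co-culture and separate culture comes from the library titles and the series' design text. The other 4 libraries are co-cultures of days 1 and 2 (D1_Co and D2_Co), which enter the estimate of the spread and are shown where the course of a gene is described. Neither the partner cells nor the way human cells were set apart from them is in the labels, which offer 2 culture systems, Matrigel with mTeSR1 or mouse feeder fibroblasts in a medium holding FGF2 plus IWR1, which blocks WNT signalling, without saying which library came from which. Whether D3_Co and D3_Control shared a medium remains not given in the sources used here.

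Cell competition is the process in which cells of lower fitness are lost when they grow beside fitter neighbours, although they live when grown alone. The series is about that process as a barrier to chimeras between distant species. Human embryonic stem cells in the primed state resemble the epiblast just before gastrulation, express POU5F1, SOX2 and NANOG, and grow as epithelial colonies that depend on FGF2 and TGF-beta signals. Values are FPKM, the fragments of a gene per kilobase of its length scaled by the fragments mapped in its library, read after misplaced values had been returned to their genes. Log2 differences are D3_Co minus D3_Control on the log2(FPKM + 1) scale, where the changes of low genes appear too small. Genes over or under a given fold are counted on this scale too. A gene is called, and said to have risen or fallen, where the Benjamini-Hochberg adjusted p of limma over all tested genes was under 0.05. Both groups hold n = 2 libraries. Whether they were separate cultures is not in the labels, so the spread behind the p-values is that between these samples and may be technical. With 2 libraries against 2, an exact permutation test of a single gene cannot go below 0.33, so calls rest on the model across all genes.

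The cell type was checked on marker genes before the groups were compared. All 8 markers of pluripotent stem cells were expressed, with summed levels of 1614 and 1580 FPKM in the D3_Co libraries and 1798 and 1713 FPKM in the D3_Control libraries. Of 10 fibroblast markers, 4 reached a mean of 1 FPKM, with summed levels of 345 and 339.6 FPKM in D3_Co, against 310.1 and 315 FPKM in D3_Control, and DCN, LUM and FAP were listed at 0 in all day 3 libraries. Of 14 trophoblast and amnion markers, 2 reached 1 FPKM and 6, among them CGA, HAND1 and ELF5, were listed at 0. Of 7 neuroectoderm markers, none reached 1 FPKM. Summed levels of the 7 mesoderm markers were 25.0 and 24.4 FPKM in D3_Co, against 17.8 and 20.6 FPKM in D3_Control, with HAND2 at 0. Of these 7, 2 reached 1 FPKM. Most of the sum was KDR, at 22.5 and 21.5 FPKM in D3_Co and 15.4 and 17.9 FPKM in D3_Control. FPKM summed to between 421826 and 440675 per library over the whole table, and the number of reads behind the values is unknown.

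In day 3 co-culture 1684 genes were higher and 1347 lower than in separate culture, out of 12448 tested, so 24.3% of genes were called by limma, 13.5% higher and 10.8% lower. Most of these differences were small on the log2(FPKM + 1) scale. Of the called genes, 2373 (78.3%) differed by less than 1.5-fold, and the median log2 difference was 0.46 among those that rose and -0.34 among those that fell. Larger changes on this scale ran mostly in one direction. In all, 150 called genes (1.21% of those tested) differed by over 2-fold, 131 of them higher (1.05%) and 19 lower (0.153%). These counts depend on the 1 FPKM added, and 314 called genes differed by over 2-fold with 0.1 added instead. Some called genes over 2-fold in FPKM are not counted, such as SEMA7A (ratio of means 2.25) and OTX2 (0.484). The 10 that differed by over 4-fold on this scale include WNT10B, FAM71F1, PLAU and CH25H, all higher. In FPKM itself more called genes pass 4-fold, in both directions. LTB did so with a ratio of means of 38.8 and TVP23C-CDRT4 with 0.0094. In all 3031 called genes the libraries of the groups did not overlap, which was also so for 8153 genes (65.5%) of those tested. Over all tested genes the median log2 difference was 0.0018.

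Genes that rose tended to be of low abundance and genes that fell of middle abundance. Among 2666 genes with a day 3 mean of 2 to 5 FPKM, 433 rose and 125 fell, whereas among 2867 genes with 20 to 100 FPKM, 320 rose and 606 fell. Of 681 genes above 100 FPKM, 66 rose and 80 fell. Genes that rose held 11.3% of the tested FPKM in D3_Co and 8.19% in D3_Control, and genes that fell held 10.3% in D3_Co and 13.2% in D3_Control. Leaving out a library cut the number of calls by over 1.5 times. Called genes numbered 1849 without D3_Co replicate 1, 1674 without D3_Co replicate 2, 1616 without D3_Control replicate 2 and 1605 without D3_Control replicate 3. All 3031 kept their direction in these 4 fits. That outcome was fixed in advance, because the groups of every called gene did not overlap, so it is no sign of robustness.

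**Figure D1:**
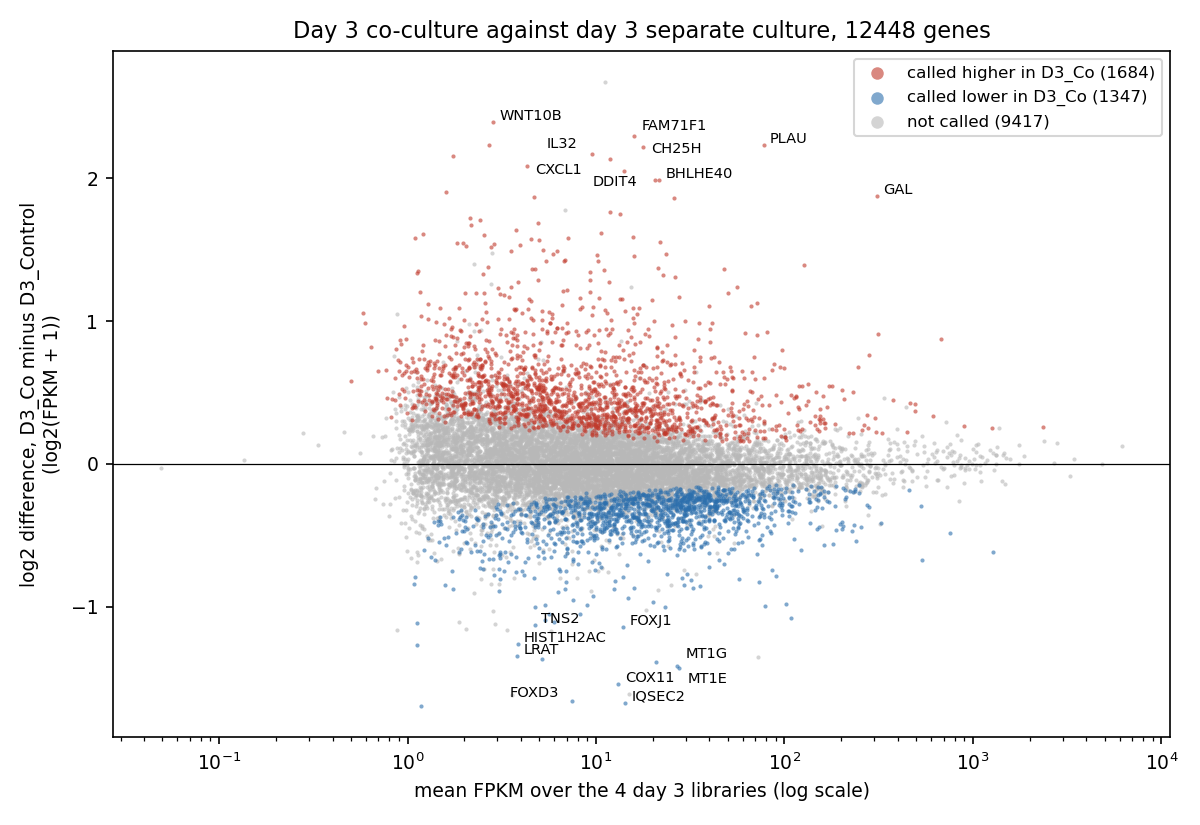
Each point is 1 of 12448 genes, with its mean FPKM over the 4 day 3 libraries on a log axis and its log2 difference (D3_Co minus D3_Control) on the vertical axis. Red points (1684) were called higher in D3_Co and blue points (1347) lower, and differences over 1 lie mostly on the upper side, with WNT10B and PLAU among the highest and IQSEC2 and FOXD3 among the lowest.

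Several secreted signals were among the genes with the highest differences. WNT10B, a secreted WNT ligand (chr12:48965340-48971763, minus strand, GENCODE v29 on GRCh38), stood at 5.5 and 5.43 FPKM in the D3_Co libraries, against 0.251 and 0.209 FPKM in the D3_Control libraries (log2 difference 2.39, SE 0.071, limma adjusted p = 2.23e-05). It was near 0 in separate culture and its groups were far apart. CXCL1, a chemokine that attracts neutrophils, stood at 7.5 and 7.58 FPKM in the D3_Co libraries, against 0.884 and 1.15 FPKM in the D3_Control libraries (log2 difference 2.08, SE 0.21, limma adjusted p = 0.00125). CXCL5, a related chemokine (chr4:73995642-73998779, minus strand), was measured at 20.2 and 22.2 FPKM in the D3_Co libraries, against 5.66 and 5.53 FPKM in the D3_Control libraries (log2 difference 1.75, SE 0.10, limma adjusted p = 0.00016). IL32, an inflammatory cytokine (chr16:3065297-3082192, plus strand), had 16.8 and 15.7 FPKM in the D3_Co libraries, against 2.83 and 2.86 FPKM in the D3_Control libraries (log2 difference 2.17, SE 0.15, limma adjusted p = 0.000307). For all 3 genes, both libraries of D3_Co lay above both of D3_Control, and the libraries of a group lay close together. PDGFB, a platelet-derived growth factor chain, was at 18.6 and 19.2 FPKM in the D3_Co libraries, against 5.09 and 4.65 FPKM in the D3_Control libraries (log2 difference 1.77, SE 0.087, limma adjusted p = 0.000139). INHBE, which encodes an inhibin beta subunit of the TGF-beta family, was at 8.58 and 7.56 FPKM in the D3_Co libraries, against 2.03 and 1.63 FPKM in the D3_Control libraries (log2 difference 1.68, SE 0.10, limma adjusted p = 0.000206). GAL, the precursor of the neuropeptide galanin, was the most abundant of the 20 genes with the highest differences, at 500.4 and 478 FPKM in the D3_Co libraries, against 140.2 and 126 FPKM in the D3_Control libraries (log2 difference 1.87, SE 0.10, limma adjusted p = 0.000142). Its groups were far apart. In bulk samples, a change in the share of cells that make a transcript and a change of its level per cell cannot be told apart. Exons of IL32 overlap other genes, so these values are uncertain.

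Of the 20 highest and 20 lowest genes, those whose RefSeq promoter held an NF-kB-like match within 150 bases before the gene start are shown, since NF-kB is a known activator of chemokine genes and CXCL1 and CXCL5 are among the 20 highest. The motif searched was GGG, any 3 bases and TTCC, on both strands, and capitals mark the match. It stood 99 bases before the start of IL32 (chr16:3065294-3065323, plus strand), 79 bases before that of CXCL1 (chr4:73869243-73869392, plus strand), 141 bases before that of AHNAK (chr11:62545827-62545976, minus strand), 91 bases before that of CXCL5 (chr4:73998749-73998778, minus strand) and 113 bases before that of TNC (chr9:115118251-115118280, minus strand), all in GRCh38.p14. In CXCL1 and CXCL5 the match overlaps a match on the opposite strand, 1 base nearer to the start, and both are in capitals. Distances are to RefSeq starts. Those of IL32, AHNAK, CXCL5 and TNC are not the GENCODE v29 starts and lie inside the spans GENCODE gives these genes. The matches of IL32, AHNAK and CXCL5 lie inside these spans too, and that of TNC lies before the GENCODE start. CXCL1 and AHNAK are shown over 150 bases. For the other 3, where part of that stretch is exon in GENCODE v29, only 30 bases around the match are shown, each read 5′ to 3′ on the gene's strand.
IL32: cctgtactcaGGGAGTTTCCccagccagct
CXCL1: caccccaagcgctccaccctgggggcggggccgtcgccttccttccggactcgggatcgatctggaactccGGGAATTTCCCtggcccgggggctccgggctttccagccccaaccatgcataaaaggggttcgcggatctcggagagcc
AHNAK: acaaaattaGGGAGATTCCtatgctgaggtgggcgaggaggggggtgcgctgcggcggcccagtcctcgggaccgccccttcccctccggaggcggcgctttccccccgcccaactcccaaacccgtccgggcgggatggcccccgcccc
CXCL5: catgagttcaGGGAATTTCCCcagcatccc
TNC: tccgctgggaGGGCTGTTCCtttaattcgc

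The motif stood in the promoter, from 250 bases before to 50 after the start, of 6.47% of the 27305 promoters in the RefSeq table, and of 7.55% of the 9889 tested genes that have one there. It was found in 9.67% of 1314 promoters of genes called higher, in 6.96% of 1135 promoters of genes called lower, and in 15 of 102 promoters (14.7%) of genes called over 2-fold higher and 0 of 11 of genes called over 2-fold lower. A match is a description of letters and not a binding site.

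Genes for surface, scaffold and secreted matrix proteins followed. PLAU, the secreted urokinase protease that activates plasminogen (chr10:73909177-73917497, plus strand), stood at 121 and 136 FPKM in the D3_Co libraries, against 28.9 and 24.4 FPKM in the D3_Control libraries (log2 difference 2.23, SE 0.10, limma adjusted p = 8.35e-05). TMPRSS11E, a transmembrane serine protease, was at 7.3 and 7.21 FPKM in the D3_Co libraries, against 2.3 and 1.33 FPKM in the D3_Control libraries (log2 difference 1.57, SE 0.16, limma adjusted p = 0.00127). In both proteases the groups did not overlap, and PLAU was by far the more abundant. AHNAK, a very large scaffold protein beneath the plasma membrane (chr11:62433542-62556235, minus strand), had 7.29 and 8.64 FPKM in the D3_Co libraries, against 1.52 and 1.38 FPKM in the D3_Control libraries (log2 difference 1.87, SE 0.21, limma adjusted p = 0.00174). TNC, the matrix protein tenascin C, had 15.7 and 17.3 FPKM in the D3_Co libraries, against 4.68 and 4.76 FPKM in the D3_Control libraries (log2 difference 1.61, SE 0.16, limma adjusted p = 0.00111). SLC16A3, a transporter that exports lactate, was at 5.8 and 6.57 FPKM in the D3_Co libraries, against 1.35 and 1.26 FPKM in the D3_Control libraries (log2 difference 1.64, SE 0.086, limma adjusted p = 0.000142). All 3 were low in separate culture, and both co-culture libraries of each lay well above it. Exons of PLAU, SLC16A3 and TNC overlap other genes, so these values are uncertain.

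Regulators inside the cell made up the rest. ZC3H12A, a ribonuclease that degrades mRNAs of inflammatory genes, was at 20.2 and 19.6 FPKM in the D3_Co libraries, against 3.78 and 3.73 FPKM in the D3_Control libraries (log2 difference 2.14, SE 0.06, limma adjusted p = 2.23e-05). DDIT4, a stress-induced inhibitor of mTOR signalling, had 31.4 and 35.3 FPKM in the D3_Co libraries, against 7.6 and 7.7 FPKM in the D3_Control libraries (log2 difference 1.99, SE 0.068, limma adjusted p = 2.48e-05). BHLHE40, a repressor linked to the circadian clock and to stress, had 34.1 and 36 FPKM in the D3_Co libraries, against 8.57 and 7.66 FPKM in the D3_Control libraries (log2 difference 1.99, SE 0.078, limma adjusted p = 4.63e-05). In these 3 genes the co-culture libraries lay close together and above both controls. KLF6, a zinc finger transcription factor, was at 23.3 and 24.9 FPKM in the D3_Co libraries, against 8.13 and 6.64 FPKM in the D3_Control libraries (log2 difference 1.59, SE 0.10, limma adjusted p = 0.000206). CH25H, which makes 25-hydroxycholesterol, was at 30.2 and 29.7 FPKM in the D3_Co libraries, against 6 and 5.31 FPKM in the D3_Control libraries (log2 difference 2.22, SE 0.076, limma adjusted p = 2.48e-05). PHLDA2, an imprinted gene that restrains placental growth, was at 45.3 and 37.3 FPKM in the D3_Co libraries, against 11.8 and 9.44 FPKM in the D3_Control libraries (log2 difference 1.86, SE 0.15, limma adjusted p = 0.000495). Both D3_Co libraries lay above both D3_Control libraries in all 3. FAM71F1 was at 26.6 and 27.4 FPKM in the D3_Co libraries, against 4.53 and 4.9 FPKM in the D3_Control libraries (log2 difference 2.29, SE 0.10, limma adjusted p = 8.35e-05). The last of the 20, the microRNA gene MIR3610, lies in an exon of another gene and its difference was 2.23 (limma adjusted p = 0.0498). MIR3610 was no longer called when any 1 of the 4 libraries was left out (highest limma adjusted p then 0.158). Exons of BHLHE40, DDIT4, MIR3610 and ZC3H12A overlap other genes, so these values are uncertain.

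**Figure D2:**
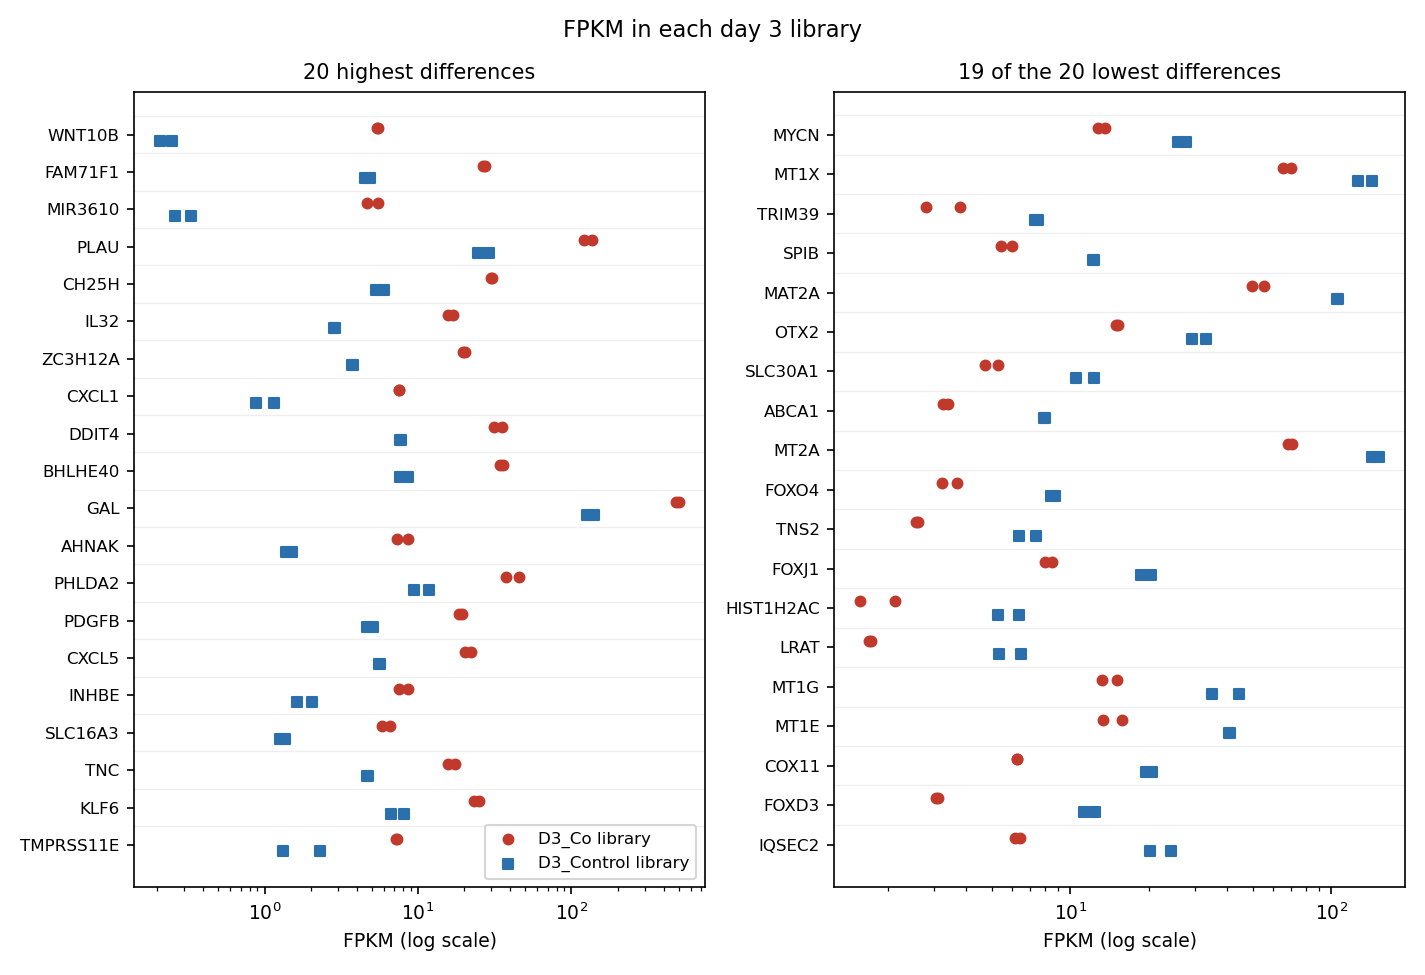
FPKM on a log axis in each day 3 library for the 20 called genes with the highest (left) and 19 of the 20 with the lowest (right) log2 difference. Red circles are D3_Co libraries and blue squares D3_Control libraries, and no gene shown has overlapping groups, with GAL at 489 FPKM and WNT10B at 5.46 FPKM as D3_Co means.

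Some genes were near absent on one side, with a mean under 0.5 FPKM in a group and at least 2 FPKM in the other. Of 11 such genes other than WNT10B and MIR3610, 9 were higher in co-culture. Testing required a mean of at least 1 FPKM over all 8 libraries, most of them co-cultures. Genes near 0 in co-culture pass that filter less easily than genes near 0 in separate culture. The filter thus helps set the direction of this count. LTB, a membrane ligand of the TNF superfamily, was at 2.33 and 3.92 FPKM in the D3_Co libraries, against 0.0939 and 0.0672 FPKM in the D3_Control libraries (log2 difference 1.91, SE 0.20, limma adjusted p = 0.00125). CXCL8, the chemokine interleukin 8, was at 1.86 and 2.44 FPKM in the D3_Co libraries, against 0.0939 and 0 FPKM in the D3_Control libraries (log2 difference 1.58, SE 0.14, limma adjusted p = 0.000663). For both, the D3_Control libraries were close to 0. S100A3, a small calcium-binding protein, was at 3.62 and 4.02 FPKM in the D3_Co libraries, against 0.722 and 0.244 FPKM in the D3_Control libraries (log2 difference 1.72, SE 0.16, limma adjusted p = 0.000948). WNT7A, another WNT ligand, was at 2.32 and 1.78 FPKM in the D3_Co libraries, against 0.0998 and 0.31 FPKM in the D3_Control libraries (log2 difference 1.34, SE 0.16, limma adjusted p = 0.00204). SPNS2, a transporter of sphingosine-1-phosphate, was at 1.94 and 2.09 FPKM in the D3_Co libraries, against 0.236 and 0.378 FPKM in the D3_Control libraries (log2 difference 1.21, SE 0.11, limma adjusted p = 0.000895). These 3 were low but present in both co-culture libraries. BACH2, a bZIP repressor known from lymphocytes, differed by 1.12, C2orf54 by 1.61, and ANKRD1, a nuclear ankyrin repeat protein responsive to stretch, by 1.35 on a row that the realignment did not settle. CDRT4 was listed at 0 in both D3_Control libraries, and TVP23C-CDRT4, a readthrough locus that shares its exons, moved the other way, with 0.0436 and 0 FPKM in the D3_Co libraries, against 1.97 and 2.69 FPKM in the D3_Control libraries. The same switch occurred among co-cultures. CDRT4 was at 3.08 and 0 FPKM in the D1_Co libraries and at 0 in both D2_Co libraries. TVP23C-CDRT4 was at 0.0246 and 2.27 FPKM in the D1_Co libraries and at 2.8 and 3.12 FPKM in the D2_Co libraries. The D2_Co libraries thus resembled D3_Control in both loci. How fragments were shared between these loci remains not given in the sources used here. The tRNA gene TRE-CTC1-3 fell by 1.27 on the log2 scale. CDRT4 and TVP23C-CDRT4 were no longer called when any 1 of the 4 libraries was left out (highest limma adjusted p then 0.146). TRE-CTC1-3 was no longer called without D3_Co replicate 1, without D3_Co replicate 2 or without D3_Control replicate 3 (highest limma adjusted p then 0.196). Exons of BACH2, CDRT4, SPNS2 and TVP23C-CDRT4 overlap other genes, so these values are uncertain.

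Among the genes with the lowest values relative to separate culture, 4 of 20 were metallothioneins. These small proteins bind zinc and copper and are induced by metals. MT1G (chr16:56666731-56668065, minus strand) was at 15 and 13.3 FPKM in the D3_Co libraries, against 34.8 and 44.4 FPKM in the D3_Control libraries (log2 difference -1.41, SE 0.12, limma adjusted p = 0.000558). MT1E was at 15.8 and 13.4 FPKM in the D3_Co libraries, against 40.7 and 41 FPKM in the D3_Control libraries (log2 difference -1.43, SE 0.10, limma adjusted p = 0.000282). MT2A was at 70.6 and 68.1 FPKM in the D3_Co libraries, against 143 and 152 FPKM in the D3_Control libraries (log2 difference -1.08, SE 0.081, limma adjusted p = 0.000404). In all 3, both co-culture libraries lay below both controls. MT1X fell by 0.98 on the log2 scale. SLC30A1, a zinc exporter of the plasma membrane, was at 5.28 and 4.7 FPKM in the D3_Co libraries, against 12.3 and 10.5 FPKM in the D3_Control libraries (log2 difference -1.05, SE 0.11, limma adjusted p = 0.00125). The metallothionein genes lie side by side on chromosome 16 and are near-identical copies, so reads can be split among them. Exons of MT1X overlap other genes, so these values are uncertain.

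Transcription factors of the epiblast and early ectoderm were also among the lowest. FOXD3, a factor of pluripotent cells and neural crest (chr1:63323041-63325126, plus strand), was at 3.07 and 3.1 FPKM in the D3_Co libraries, against 11.3 and 12.5 FPKM in the D3_Control libraries (log2 difference -1.66, SE 0.11, limma adjusted p = 0.000243). OTX2, a factor of the epiblast and the anterior neural plate (chr14:56799905-56810479, minus strand), was at 15.2 and 14.9 FPKM in the D3_Co libraries, against 33.1 and 29.3 FPKM in the D3_Control libraries (log2 difference -0.998, SE 0.072, limma adjusted p = 0.000363). MYCN, a MYC family factor, was at 13.6 and 12.8 FPKM in the D3_Co libraries, against 25.8 and 27.7 FPKM in the D3_Control libraries (log2 difference -0.97, SE 0.083, limma adjusted p = 0.000634). In each, both D3_Control libraries lay well above both D3_Co libraries. FOXJ1, a factor needed for motile cilia, was at 8.54 and 8.04 FPKM in the D3_Co libraries, against 18.6 and 20.5 FPKM in the D3_Control libraries (log2 difference -1.14, SE 0.075, limma adjusted p = 0.000278). FOXO4, a forkhead factor inhibited by insulin signalling, fell by 1.11 and SPIB, an ETS family factor, by 0.99 on the log2 scale. TRIM39, a ubiquitin ligase, differed by -0.99. TRIM39 was no longer called when any 1 of the 4 libraries was left out (highest limma adjusted p then 0.125). Exons of FOXD3, FOXJ1, MYCN, SPIB and TRIM39 overlap other genes, so these values are uncertain.

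The other genes of this end serve metabolism, signalling or chromatin. MAT2A, which makes the methyl donor S-adenosylmethionine, was at 49.9 and 55.2 FPKM in the D3_Co libraries, against 105 and 106 FPKM in the D3_Control libraries (log2 difference -0.997, SE 0.067, limma adjusted p = 0.000282). COX11, a mitochondrial factor that delivers copper to cytochrome c oxidase, was at 6.23 and 6.23 FPKM in the D3_Co libraries, against 19.5 and 20.6 FPKM in the D3_Control libraries (log2 difference -1.54, SE 0.078, limma adjusted p = 0.000139). LRAT, which esterifies retinol for storage, was at 1.69 and 1.73 FPKM in the D3_Co libraries, against 5.33 and 6.49 FPKM in the D3_Control libraries (log2 difference -1.35, SE 0.17, limma adjusted p = 0.00255). None of these had overlapping groups. IQSEC2, an exchange factor for ARF GTPases known from synapses, had the lowest difference of the 20, at 6.15 and 6.41 FPKM in the D3_Co libraries, against 20.2 and 24.3 FPKM in the D3_Control libraries (log2 difference -1.67, SE 0.093, limma adjusted p = 0.000155). ABCA1, which exports cholesterol, was at 3.26 and 3.4 FPKM in the D3_Co libraries, against 7.97 and 7.97 FPKM in the D3_Control libraries (log2 difference -1.05, SE 0.076, limma adjusted p = 0.000369). TNS2, a tensin of focal adhesions, fell by 1.13 and HIST1H2AC, a histone H2A gene, by 1.26 on the log2 scale. Replication-dependent histone mRNAs carry no polyA tail, so a polyA library samples them poorly. Exons of COX11, MAT2A and TNS2 overlap other genes, so these values are uncertain.

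The 10 most abundant called genes differed by less than 2-fold. VIM, the intermediate filament vimentin, was at 857 and 893 FPKM in the D3_Co libraries, against 542 and 419.8 FPKM in the D3_Control libraries (log2 difference 0.87, SE 0.12, limma adjusted p = 0.00369). S100A11, a calcium-binding protein, differed by 0.37, PKM, a glycolytic enzyme, by 0.34, and TMSB4X, which binds actin monomers, by 0.27. The ferritin chains FTL and FTH1, which store iron, differed by 0.26 and 0.25. On the lower side, DNMT3B, a DNA methyltransferase of the pluripotent epiblast, was at 420.1 and 403 FPKM in the D3_Co libraries, against 652 and 663 FPKM in the D3_Control libraries (log2 difference -0.67, SE 0.066, limma adjusted p = 0.00107). HSPA8, a constitutive heat shock chaperone, was at 1016 and 994 FPKM in the D3_Co libraries, against 1522 and 1555 FPKM in the D3_Control libraries (log2 difference -0.61, SE 0.053, limma adjusted p = 0.000648). CD24, a surface glycoprotein, was at 645 and 622 FPKM in the D3_Co libraries, against 901 and 869.6 FPKM in the D3_Control libraries (log2 difference -0.48, SE 0.046, limma adjusted p = 0.000986). TRIM28, a corepressor recruited by KRAB zinc fingers, differed by -0.29. S100A11 and FTH1 were no longer called when any 1 of the 4 libraries was left out (highest limma adjusted p then 0.201). TMSB4X was no longer called without D3_Co replicate 2, without D3_Control replicate 2 or without D3_Control replicate 3 (highest limma adjusted p then 0.158). FTL was no longer called without D3_Control replicate 2 or D3_Control replicate 3 (highest limma adjusted p then 0.0631). TRIM28 was no longer called without D3_Co replicate 2 or D3_Control replicate 2 (highest limma adjusted p then 0.0584). Exons of FTH1, HSPA8 and VIM overlap other genes, so these values are uncertain.

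Gene families were then read as lists, each given by its members tested, those called higher and lower, and its median log2 difference, to be set against the 13.5% higher, the 10.8% lower and the median of 0.0018 over all tested genes. Among ligands and receptors, TNF superfamily and IL6 family genes rose more often than they fell. Of 19 tested TNF ligands and receptors, 10 rose and 1 fell (median log2 difference 0.34). FAS, a death receptor, was at 4.25 ± 0.428 FPKM in D3_Co and 2.46 ± 0.274 FPKM in D3_Control (log2 difference 0.60, SE 0.10, limma adjusted p = 0.00672), and the TRAIL receptors TNFRSF10A, TNFRSF10B and TNFRSF10D differed by 0.40, 0.42 and 0.23. TNFRSF8, the receptor CD30 that human embryonic stem cells are known to express, fell by 0.28 on the log2 scale. Of 29 tested genes of the LIF, IL6 and JAK-STAT group, 8 rose and 2 fell (median log2 difference 0.11). IL11, an IL6 family cytokine, was at 3.96 and 3.69 FPKM in the D3_Co libraries, against 0.459 and 0.564 FPKM in the D3_Control libraries (log2 difference 1.68, SE 0.13, limma adjusted p = 0.000404). IL6R and the shared receptor chain IL6ST differed by 0.68 and 0.48, and LIF by 0.50. The 10 TNF superfamily members called higher became 6, 5, 6 and 5, the 8 LIF, IL6 and JAK-STAT genes called higher became 6, 4, 5 and 6, the 1 TNF superfamily member called lower became 0, 0, 0 and 0 and the 2 LIF, IL6 and JAK-STAT genes called lower became 2, 1, 1 and 2 without D3_Co replicate 1, D3_Co replicate 2, D3_Control replicate 2 and D3_Control replicate 3, in that order of libraries. TNFRSF10A, TNFRSF10D and TNFRSF8 were no longer called when any 1 of the 4 libraries was left out (highest limma adjusted p then 0.193). IL6ST was no longer called without D3_Co replicate 2 or D3_Control replicate 3 (highest limma adjusted p then 0.0588). LIF was no longer called without D3_Co replicate 2 or D3_Control replicate 2 (highest limma adjusted p then 0.066). Exons of FAS, IL6ST, LIF, TNFRSF10A and TNFRSF10B overlap other genes, so these values are uncertain.

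Growth factor and contact signalling was mixed. Of 6 tested EGF family genes, 2 rose and 1 fell (median log2 difference 0.37). HBEGF, a ligand of the EGF receptor, was at 4.89 and 5.46 FPKM in the D3_Co libraries, against 2.03 and 1.5 FPKM in the D3_Control libraries (log2 difference 1.17, SE 0.12, limma adjusted p = 0.00126), and the receptor EGFR differed by 0.58. ERBB2, a receptor of the same family, was at 67.9 and 64.6 FPKM in the D3_Co libraries, against 115 and 114 FPKM in the D3_Control libraries (log2 difference -0.78, SE 0.045, limma adjusted p = 0.000168). Both groups of libraries stood apart for HBEGF, which rose, and for ERBB2, which fell. Of 21 tested TGF-beta ligands, receptors and targets, 6 rose and 2 fell (median log2 difference 0.12). TGFBI, a secreted TGF-beta target, was at 8.94 ± 0.589 FPKM in D3_Co and 4.44 ± 0.044 FPKM in D3_Control (log2 difference 0.87, SE 0.069, limma adjusted p = 0.00045). BAMBI, a decoy receptor, fell by 0.33 on the log2 scale. Of 20 tested Notch pathway genes, 3 rose and 2 fell (median log2 difference 0.17). This share of 25% called was near the 24.3% over all tested genes. HES4, a Notch target, was at 3.13 and 3.88 FPKM in the D3_Co libraries, against 0.291 and 0.892 FPKM in the D3_Control libraries (log2 difference 1.52, SE 0.20, limma adjusted p = 0.00279), and the ligands JAG1 and JAG2 differed by 0.43 and 0.67. LFNG, which modifies Notch receptors, and RBPJ, the DNA-binding factor of the pathway, differed by -0.58 and -0.41. The 2 EGF family genes called higher became 1, 2, 1 and 2, the 6 TGF-beta genes called higher became 3, 2, 3 and 2 and the 2 TGF-beta genes called lower became 2, 1, 0 and 1 without D3_Co replicate 1, D3_Co replicate 2, D3_Control replicate 2 and D3_Control replicate 3, in that order of libraries. EGFR was no longer called without D3_Co replicate 1 or D3_Control replicate 2 (highest limma adjusted p then 0.0899). BAMBI was no longer called without D3_Control replicate 2 (highest limma adjusted p then 0.0518). Exons of EGFR, ERBB2, JAG1 and JAG2 overlap other genes, so these values are uncertain.

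Guidance and morphogen families held called members in both directions. Of 21 tested semaphorins, plexins and neuropilins, 6 rose and 1 fell (median log2 difference 0.14). SEMA7A, a membrane-anchored semaphorin, was at 7.93 ± 0.19 FPKM in D3_Co and 3.52 ± 0.273 FPKM in D3_Control (log2 difference 0.98, SE 0.10, limma adjusted p = 0.00117), and the receptors PLXND1 and NRP2 differed by 0.66 and 0.59. Of 15 tested ephrins and Eph receptors, 4 rose and 1 fell (median log2 difference 0.16). EPHA2, an Eph receptor of epithelia, was at 31.2 ± 1.31 FPKM in D3_Co and 18.8 ± 0.319 FPKM in D3_Control (log2 difference 0.70, SE 0.051, limma adjusted p = 0.000377), and the ligand EFNB1 differed by -0.51. Of 9 tested Hedgehog pathway genes, 1 rose and 2 fell (median log2 difference 0.04). The transducer SMO was at 19.8 ± 0.152 FPKM in D3_Co and 26.7 ± 0.602 FPKM in D3_Control (log2 difference -0.41, SE 0.061, limma adjusted p = 0.00422), and the transcription factor GLI2 differed by -0.43. Of 20 tested protocadherins and neuronal adhesion genes, 4 rose and 7 fell (median log2 difference 0.059). The neuroligins NLGN3 and NLGN4X, synaptic adhesion proteins, were among the lowest. NLGN3 was at 1.97 ± 0.018 FPKM in D3_Co and 4.23 ± 0.869 FPKM in D3_Control (log2 difference -0.81, SE 0.12, limma adjusted p = 0.00432) and NLGN4X differed by -0.77. The 6 semaphorin group genes called higher became 3, 3, 4 and 5, the 4 ephrin and Eph genes called higher became 3, 2, 3 and 3, the 1 ephrin and Eph gene called lower became 1, 0, 0 and 0, the 2 Hedgehog genes called lower became 1, 2, 1 and 2, the 4 adhesion genes called higher became 4, 3, 3 and 2, the 7 adhesion genes called lower became 3, 5, 4 and 5 and the 1 semaphorin group gene called lower became 0, 1, 0 and 0 without D3_Co replicate 1, D3_Co replicate 2, D3_Control replicate 2 and D3_Control replicate 3, in that order of libraries. EFNB1 was no longer called without D3_Co replicate 2, without D3_Control replicate 2 or without D3_Control replicate 3 (highest limma adjusted p then 0.109). GLI2 was no longer called without D3_Co replicate 1 or D3_Control replicate 2 (highest limma adjusted p then 0.0564). Exons of NRP2 and SMO overlap other genes, so these values are uncertain.

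Inside the cell, feedback inhibitors of MAP kinase signalling moved both ways. Of 15 tested MAP kinase phosphatase, Sprouty and SPRED genes, 4 rose and 3 fell (median log2 difference 0.017). DUSP8 and DUSP10, phosphatases that act on the stress kinases JNK and p38, were higher, with DUSP10 at 5.44 and 5.52 FPKM in the D3_Co libraries, against 2.38 and 1.76 FPKM in the D3_Control libraries (log2 difference 1.09, SE 0.11, limma adjusted p = 0.00115) and DUSP8 at a difference of 1.29. DUSP6, a phosphatase of ERK that follows FGF signalling, was at 39.9 and 38.5 FPKM in the D3_Co libraries, against 59.1 and 62.6 FPKM in the D3_Control libraries (log2 difference -0.62, SE 0.074, limma adjusted p = 0.00211), and SPRY1, another FGF feedback inhibitor, fell by 0.55 on the log2 scale. Exons of DUSP6 overlap other genes, so these values are uncertain.

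In lists of the cell cortex and cytoskeleton, genes called higher outnumbered those called lower. Of 23 tested caveola, annexin and S100 genes, 18 rose and 0 fell (median log2 difference 0.68), with 0 lower at an unadjusted limma p under 0.05. Besides AHNAK, the calcium-binding protein genes S100A6, S100A4, S100A16 and ANXA1 differed by 1.01, 0.95, 0.91 and 0.93. S100A6 was at 5.24 and 4.65 FPKM in the D3_Co libraries, against 2.02 and 1.88 FPKM in the D3_Control libraries (log2 difference 1.01, SE 0.12, limma adjusted p = 0.00232). The caveola genes CAV1, CAV2, CAVIN1 and EHD2 differed by 0.42, 0.99, 0.72 and 0.94. Of 40 tested actin filament genes, 19 rose and 1 fell (median log2 difference 0.19). FLNC, a filamin that cross-links actin, was at 93 and 90.1 FPKM in the D3_Co libraries, against 44.3 and 39.8 FPKM in the D3_Control libraries (log2 difference 1.10, SE 0.075, limma adjusted p = 0.000295). TAGLN2, a calponin family actin-binding protein, was at 408 and 408 FPKM in the D3_Co libraries, against 231 and 204 FPKM in the D3_Control libraries (log2 difference 0.91, SE 0.084, limma adjusted p = 0.000897). The myosin heavy chain MYH9 differed by 0.55 and vinculin (VCL), which links adhesions to actin, by 0.24, while the tropomyosin TPM1 fell by 0.21 on the log2 scale. Of 17 tested keratin, intermediate filament and desmosome genes, 8 rose and 1 fell (median log2 difference 0.30). Desmoplakin (DSP), the desmosome linker, was at 26.6 ± 1.66 FPKM in D3_Co and 15.3 ± 0.169 FPKM in D3_Control (log2 difference 0.76, SE 0.10, limma adjusted p = 0.00285), and plectin (PLEC), a cytoskeletal linker, differed by 0.68. The 19 actin filament genes called higher became 13, 15, 16 and 11 and the 1 actin filament gene called lower became 0, 1, 0 and 1 without D3_Co replicate 1, D3_Co replicate 2, D3_Control replicate 2 and D3_Control replicate 3, in that order of libraries. CAV1 and VCL were no longer called without D3_Co replicate 1 or D3_Control replicate 3 (highest limma adjusted p then 0.125). TPM1 was no longer called without D3_Co replicate 1, without D3_Co replicate 2 or without D3_Control replicate 2 (highest limma adjusted p then 0.163). Exons of CAV2, FLNC, S100A6, TPM1 and VCL overlap other genes, so these values are uncertain.

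The lists of proteases and their inhibitors and of coagulation genes also held more genes called higher than lower. Of 41 tested extracellular proteases and inhibitors, 16 rose and 4 fell (median log2 difference 0.19). Beside PLAU, its receptor PLAUR differed by 0.68. MMP9, a gelatinase, was at 28 and 27.4 FPKM in the D3_Co libraries, against 12 and 12 FPKM in the D3_Control libraries (log2 difference 1.15, SE 0.077, limma adjusted p = 0.000282). ADAM9, a membrane protease that sheds surface proteins, was at 16.4 ± 0.662 FPKM in D3_Co and 8.05 ± 0.326 FPKM in D3_Control (log2 difference 0.94, SE 0.07, limma adjusted p = 0.000404). On the lower side, TIMP4, a metalloprotease inhibitor, fell by 0.54 and the serine protease HTRA1 by 0.44 on the log2 scale. Of 13 tested complement regulator and coagulation genes, 8 rose and 0 fell (median log2 difference 0.42), with 0 lower at an unadjusted limma p under 0.05. F2RL1, a receptor activated by cleavage by proteases, was at 22.8 and 24.1 FPKM in the D3_Co libraries, against 10.5 and 10.4 FPKM in the D3_Control libraries (log2 difference 1.09, SE 0.07, limma adjusted p = 0.000243). F3, tissue factor, was at 4.72 ± 0.178 FPKM in D3_Co and 2.3 ± 0.062 FPKM in D3_Control (log2 difference 0.79, SE 0.12, limma adjusted p = 0.00407), and CD55 and CD46, which protect cells from complement, differed by 0.42 and 0.26. Of 24 tested glypican, syndecan and heparan sulphate genes, 6 rose and 2 fell (median log2 difference 0.088). SDC4, a syndecan of focal adhesions, was at 53.4 and 55.2 FPKM in the D3_Co libraries, against 26.1 and 23.5 FPKM in the D3_Control libraries (log2 difference 1.10, SE 0.061, limma adjusted p = 0.000155). Of 10 fibroblast markers, 4 were tested, of which 2 rose and 0 fell (median log2 difference 0.28, lowest -0.06). Those not called also had an unadjusted limma p of at least 0.05. COL1A2, a collagen chain, was at 25.1 and 24.9 FPKM in the D3_Co libraries, against 13.3 and 11.8 FPKM in the D3_Control libraries (log2 difference 0.94, SE 0.091, limma adjusted p = 0.001) and COL1A1 at 42.5 and 39.96 FPKM in the D3_Co libraries, against 27.6 and 28.8 FPKM in the D3_Control libraries (log2 difference 0.53, SE 0.066, limma adjusted p = 0.00237), with DCN, LUM and FAP at 0. The summed marker level was 339.6 to 345 FPKM in D3_Co and 310.1 to 315 FPKM in D3_Control. The part of fibroblasts in these results was not tested. The 4 proteases and inhibitors called lower became 3, 0, 1 and 0, the 8 complement and coagulation genes called higher became 7, 5, 6 and 5 and the 2 glypican group genes called lower became 1, 0, 1 and 1 without D3_Co replicate 1, D3_Co replicate 2, D3_Control replicate 2 and D3_Control replicate 3, in that order of libraries. TIMP4 was no longer called without D3_Co replicate 2 or D3_Control replicate 3 (highest limma adjusted p then 0.061). HTRA1 and CD46 were no longer called without D3_Co replicate 2, without D3_Control replicate 2 or without D3_Control replicate 3 (highest limma adjusted p then 0.128). CD55 was no longer called when any 1 of the 4 libraries was left out (highest limma adjusted p then 0.0625). Exons of HTRA1, MMP9 and TIMP4 overlap other genes, so these values are uncertain.

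**Figure D3:**
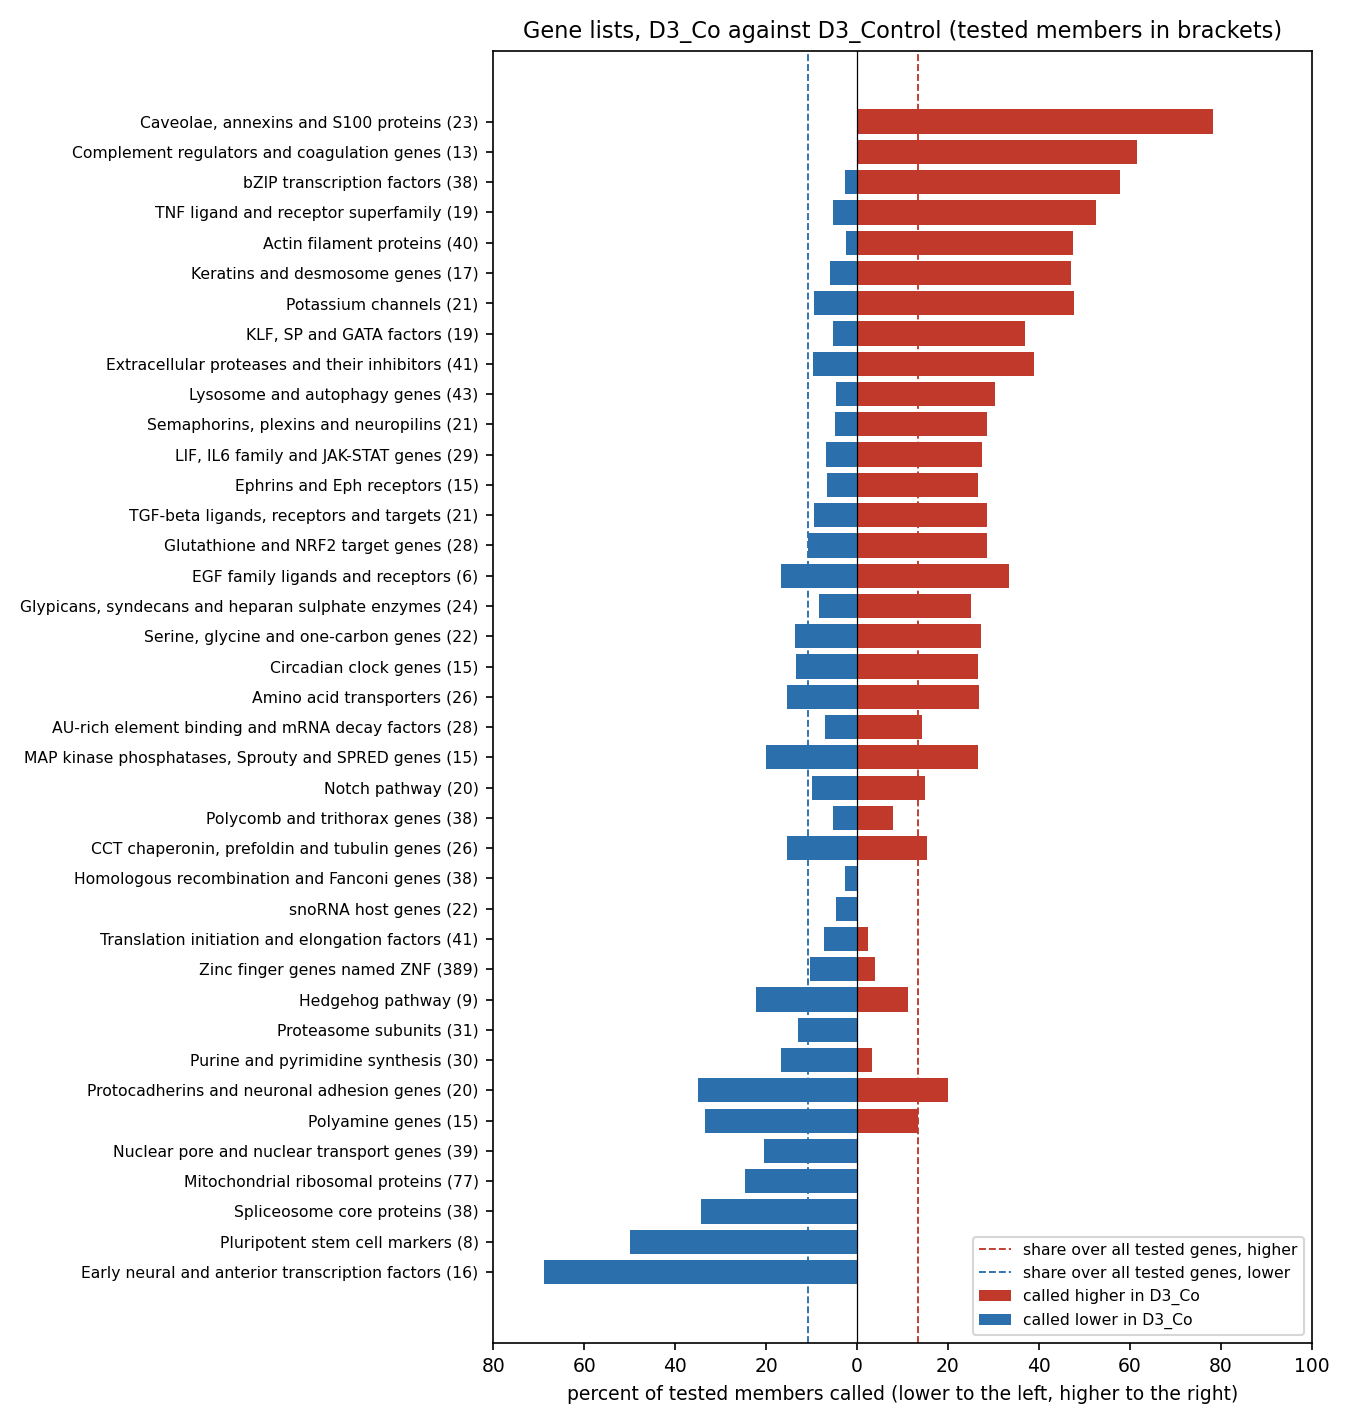
For each gene list with at least 5 tested members, with 1 list left out, bars give the percent of tested members called higher in D3_Co (red, to the right) and called lower (blue, to the left), with the number tested in brackets and lists ordered by the percent higher minus the percent lower. Dashed lines mark the 13.5% higher and 10.8% lower of all tested genes, and caveola, annexin and S100 genes (18 of 23 higher) and early neural factors (11 of 16 lower) lie farthest from them on their sides.

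Transcription factors split by family. Of 38 tested bZIP factors, 22 rose and 1 fell (median log2 difference 0.42). This family binds AP-1, ATF4 and NRF2 sites. ATF3, a factor induced by stress, was at 13.8 and 17.1 FPKM in the D3_Co libraries, against 5.22 and 5.01 FPKM in the D3_Control libraries (log2 difference 1.42, SE 0.14, limma adjusted p = 0.00106). FOSL2, a FOS family member, was at 9.91 and 10.6 FPKM in the D3_Co libraries, against 3.5 and 2.92 FPKM in the D3_Control libraries (log2 difference 1.42, SE 0.084, limma adjusted p = 0.000172). MAFF, a small MAF protein, was at 10.5 ± 0.336 FPKM in D3_Co and 3.27 ± 0.0157 FPKM in D3_Control (log2 difference 1.42, SE 0.10, limma adjusted p = 0.000363). ATF5 fell by 0.50 on the log2 scale, although ATF4, a related factor of the same stress response, rose by 0.51. The rows of 7 bZIP members, JUN, JUNB, FOS and JUND among them, were not settled by the realignment. Of 19 tested KLF, SP and GATA factors, 7 rose and 1 fell (median log2 difference 0.22). KLF7 and KLF10 rose by 0.43 and 0.43, and SP5, a target of WNT signalling, differed by 0.58. SP5 was low on day 3, at 0.693 and 0.907 FPKM in the D3_Co libraries, against 0.154 and 0.253 FPKM in the D3_Control libraries. Its means were 7.14 FPKM in D1_Co and 3.6 FPKM in D2_Co, through which it passed the filter. Of 16 tested early neural and anterior transcription factors, 0 rose and 11 fell (median log2 difference -0.39), with 1 higher at an unadjusted limma p under 0.05. Beside OTX2, IRX2, an Iroquois homeobox factor, was at 4.43 and 5 FPKM in the D3_Co libraries, against 8.86 and 9.44 FPKM in the D3_Control libraries (log2 difference -0.83, SE 0.074, limma adjusted p = 0.000775), and SALL2 and SALL3, zinc finger factors, fell by 0.74 and 0.63 on the log2 scale. POU3F1, HESX1, ZIC2 and ZIC5, further factors of the epiblast and forebrain, differed by -0.62, -0.55, -0.40 and -0.45. Of 15 tested circadian clock genes, 4 rose and 2 fell (median log2 difference 0.026). PER2, a clock repressor, differed by -0.40 and ARNTL, the clock activator BMAL1, by 0.31. The 22 bZIP factors called higher became 19, 14, 16 and 16, the 7 KLF, SP and GATA factors called higher became 5, 5, 6 and 4, the 11 early neural factors called lower became 9, 7, 8 and 9, the 4 clock genes called higher became 1, 2, 2 and 1, the 2 clock genes called lower became 0, 0, 0 and 0 and the 1 KLF, SP and GATA factor called lower became 2, 0, 0 and 0 without D3_Co replicate 1, D3_Co replicate 2, D3_Control replicate 2 and D3_Control replicate 3, in that order of libraries. SP5, PER2 and ARNTL were no longer called when any 1 of the 4 libraries was left out (highest limma adjusted p then 0.134). HESX1 was no longer called without D3_Co replicate 1, without D3_Co replicate 2 or without D3_Control replicate 2 (highest limma adjusted p then 0.168). ZIC5 was no longer called without D3_Co replicate 2, without D3_Control replicate 2 or without D3_Control replicate 3 (highest limma adjusted p then 0.128). Exons of ATF5, PER2 and SALL2 overlap other genes, so these values are uncertain.

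Markers of the pluripotent state fell in part. Of 8 tested pluripotency markers, 0 rose and 4 fell (median log2 difference -0.20), with 0 higher at an unadjusted limma p under 0.05. PRDM14, a repressor that guards human pluripotency, was at 40.5 and 42 FPKM in the D3_Co libraries, against 64.3 and 61.2 FPKM in the D3_Control libraries (log2 difference -0.60, SE 0.061, limma adjusted p = 0.00125). LIN28A, an RNA-binding protein, was at 209 and 225 FPKM in the D3_Co libraries, against 298 and 289.6 FPKM in the D3_Control libraries (log2 difference -0.44, SE 0.062, limma adjusted p = 0.0035), and TDGF1, a NODAL coreceptor, at 202 and 181 FPKM in the D3_Co libraries, against 271 and 258 FPKM in the D3_Control libraries (log2 difference -0.47, SE 0.062, limma adjusted p = 0.00281). In these 3 both co-culture libraries lay below both controls. ZFP42 differed by -0.26. The core factors POU5F1, SOX2 and NANOG were not called, with differences of 0.093 for POU5F1, -0.11 for SOX2 and -0.11 for NANOG. Markers of germ layers were few. FOXA2, an endoderm factor, was at 0.628 and 0.368 FPKM in the D3_Co libraries, against 1.71 and 1.63 FPKM in the D3_Control libraries (log2 difference -0.84, SE 0.12, limma adjusted p = 0.00359), and CXCR4 differed by 0.53. KDR, a receptor of mesoderm and endothelium, was at 22 ± 0.696 FPKM in D3_Co and 16.6 ± 1.79 FPKM in D3_Control and differed by 0.39. Of 3 tested trophoblast and amnion markers and 1 tested endothelial marker, TEK (-0.18, limma adjusted p = 0.231), 0 were called by limma, with 0 at an unadjusted p under 0.05. ZFP42 was no longer called when any 1 of the 4 libraries was left out (highest limma adjusted p then 0.112). CXCR4 was no longer called without D3_Co replicate 1, without D3_Co replicate 2 or without D3_Control replicate 2 (highest limma adjusted p then 0.12). KDR was no longer called without D3_Co replicate 1 (highest limma adjusted p then 0.06). Exons of FOXA2, POU5F1 and TDGF1 overlap other genes, so these values are uncertain.

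Metabolic lists held genes that rose beside genes that fell. Of 22 tested serine, glycine and one-carbon genes, 6 rose and 3 fell (median log2 difference -0.014). The mitochondrial folate enzymes MTHFD2 and ALDH1L2 were higher, with MTHFD2 at 81.1 and 82.8 FPKM in the D3_Co libraries, against 54 and 50.2 FPKM in the D3_Control libraries (log2 difference 0.65, SE 0.054, limma adjusted p = 0.000599) and ALDH1L2 at a difference of 0.72, and PSAT1, of serine synthesis, differed by 0.40. Against these, MAT2A had the largest difference on this list. Of 26 tested amino acid transporters, 7 rose and 4 fell (median log2 difference 0.12). SLC7A11, the cystine importer, was at 10.6 and 10.1 FPKM in the D3_Co libraries, against 5.32 and 5.45 FPKM in the D3_Control libraries (log2 difference 0.83, SE 0.066, limma adjusted p = 0.000475), and SLC6A6, the taurine transporter, differed by 0.82. SLC7A3, an arginine transporter, fell by 0.32 on the log2 scale. Of 15 tested polyamine genes, 2 rose and 5 fell (median log2 difference -0.071). Enzymes that break polyamines down were higher, with SMOX at 17.3 and 18.5 FPKM in the D3_Co libraries, against 10.3 and 9.54 FPKM in the D3_Control libraries (log2 difference 0.80, SE 0.062, limma adjusted p = 0.00044) and SAT1 at a difference of 1.001. ODC1, the first enzyme of polyamine synthesis, was at 125 and 136 FPKM in the D3_Co libraries, against 201 and 187 FPKM in the D3_Control libraries (log2 difference -0.56, SE 0.062, limma adjusted p = 0.00152), and SRM, which makes spermidine, fell by 0.44 on the log2 scale. Of 30 tested purine and pyrimidine synthesis genes, 1 rose and 5 fell (median log2 difference -0.088). RRM2, a subunit of ribonucleotide reductase, was at 70.4 ± 1.85 FPKM in D3_Co and 98.9 ± 7.23 FPKM in D3_Control (log2 difference -0.48, SE 0.066, limma adjusted p = 0.00312), and UMPS and CTPS1, of pyrimidine synthesis, differed by -0.39 and -0.39. The 3 serine and one-carbon genes called lower became 2, 3, 2 and 1, the 7 transporters called higher became 5, 4, 6 and 4, the 4 transporters called lower became 0, 1, 0 and 3, the 2 polyamine genes called higher became 2, 1, 1 and 2, the 5 polyamine genes called lower became 3, 3, 3 and 3 and the 5 purine and pyrimidine genes called lower became 5, 1, 2 and 4 without D3_Co replicate 1, D3_Co replicate 2, D3_Control replicate 2 and D3_Control replicate 3, in that order of libraries. SLC7A3 was no longer called when any 1 of the 4 libraries was left out (highest limma adjusted p then 0.0822). SAT1 and CTPS1 were no longer called without D3_Co replicate 2 or D3_Control replicate 2 (highest limma adjusted p then 0.168). UMPS was no longer called without D3_Co replicate 2 (highest limma adjusted p then 0.0531). Exons of ALDH1L2, MTHFD2, RRM2, SLC6A6 and SLC7A11 overlap other genes, so these values are uncertain.

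Targets of NRF2, the factor of the oxidative stress response, moved in both directions. Of 28 tested glutathione and NRF2 target genes, 8 rose and 3 fell (median log2 difference 0.07). MAFF and SLC7A11, both on this list, were among those that rose, by 1.42 and 0.83 on the log2 scale. HMOX1, heme oxygenase and a well-known target, was at 22.4 and 19 FPKM in the D3_Co libraries, against 38.5 and 37.2 FPKM in the D3_Control libraries (log2 difference -0.84, SE 0.084, limma adjusted p = 0.00111), and NQO1, another, fell by 0.23 on the log2 scale. Of 43 tested lysosome and autophagy genes, 13 rose and 2 fell (median log2 difference 0.081). SQSTM1, the autophagy receptor p62, was at 86 and 82.7 FPKM in the D3_Co libraries, against 57.6 and 53.3 FPKM in the D3_Control libraries (log2 difference 0.60, SE 0.059, limma adjusted p = 0.00107), and WIPI1 and GABARAPL1, which act in autophagosome formation, differed by 1.01 and 0.60. NPC1, which exports cholesterol from lysosomes, differed by 0.51. Of 21 tested potassium channel genes, 10 rose and 2 fell (median log2 difference 0.29). KCNG1 and KCNF1, modifier subunits of voltage-gated channels, differed by 0.79 and 0.68, and KCNN2, a calcium-activated channel, by -0.66. The 8 glutathione and NRF2 genes called higher became 4, 4, 2 and 4, the 3 glutathione and NRF2 genes called lower became 1, 1, 1 and 2, the 13 lysosome and autophagy genes called higher became 9, 8, 7 and 9, the 10 channel genes called higher became 6, 7, 7 and 8, the 2 channel genes called lower became 1, 1, 0 and 0 and the 2 lysosome and autophagy genes called lower became 1, 1, 1 and 1 without D3_Co replicate 1, D3_Co replicate 2, D3_Control replicate 2 and D3_Control replicate 3, in that order of libraries. NQO1 was no longer called without D3_Co replicate 1, without D3_Co replicate 2 or without D3_Control replicate 2 (highest limma adjusted p then 0.123). KCNN2 was no longer called without D3_Control replicate 2 or D3_Control replicate 3 (highest limma adjusted p then 0.0858). Exons of GABARAPL1, KCNG1, KCNN2, NPC1, NQO1, SLC7A11, SQSTM1 and WIPI1 overlap other genes, so these values are uncertain.

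In the lists for RNA processing and protein synthesis, most of the called genes were lower, except among CCT chaperonin, prefoldin and tubulin genes. Of 38 tested spliceosome genes, 0 rose and 13 fell (median log2 difference -0.17), with 0 higher at an unadjusted limma p under 0.05. SRSF6 and SRSF2, splicing factors of the SR family, were the lowest, with SRSF6 at 32 and 29.96 FPKM in the D3_Co libraries, against 50.8 and 46.1 FPKM in the D3_Control libraries (log2 difference -0.63, SE 0.067, limma adjusted p = 0.00143) and SRSF2 at a difference of -0.54. Of 77 tested mitochondrial ribosomal protein genes, 0 rose and 19 fell (median log2 difference -0.14), with 2 higher at an unadjusted limma p under 0.05. MRPL1 was at 14.7 and 13.9 FPKM in the D3_Co libraries, against 20.5 and 20.2 FPKM in the D3_Control libraries (log2 difference -0.49, SE 0.055, limma adjusted p = 0.00166), and the others that fell differed by -0.43 (MRPL46) to -0.15 (MRPS2). Of 39 tested nuclear pore and transport genes, 0 rose and 8 fell (median log2 difference -0.094), with 2 higher at an unadjusted limma p under 0.05. IPO4, an importin, was at 46.2 ± 1.77 FPKM in D3_Co and 61.5 ± 1.28 FPKM in D3_Control (log2 difference -0.41, SE 0.064, limma adjusted p = 0.00523), and XPO5, which exports microRNA precursors, differed by -0.31. Of 31 tested proteasome subunits, 0 rose and 4 fell (median log2 difference -0.11), with 0 higher at an unadjusted limma p under 0.05. This share of 12.9% was near the 10.8% called lower over all tested genes. PSMC4 was at 72.1 ± 1.19 FPKM in D3_Co and 93.7 ± 2.59 FPKM in D3_Control (log2 difference -0.37, SE 0.047, limma adjusted p = 0.00239). Of 41 tested translation factors, 1 rose and 3 fell (median log2 difference -0.081). Their share of 9.76% called lay below the 24.3% over all tested genes. EIF4EBP1, an inhibitor of cap-dependent initiation, rose by 0.29 and EIF6, a factor of large ribosomal subunit maturation, fell by 0.32 on the log2 scale. Of 26 tested CCT chaperonin, prefoldin and tubulin genes, 4 rose and 4 fell (median log2 difference -0.022). Of 22 tested snoRNA host genes, 0 rose and 1 fell (median log2 difference -0.092), with 0 higher at an unadjusted limma p under 0.05. Their share of 4.55% called also lay below that of all tested genes. The 13 spliceosome genes called lower became 7, 5, 8 and 5, the 19 mitochondrial ribosomal genes called lower became 11, 7, 6 and 5, the 8 nuclear pore and transport genes called lower became 3, 7, 4 and 3, the 4 proteasome genes called lower became 3, 1, 2 and 1, the 4 CCT and tubulin genes called higher became 2, 3, 1 and 3, the 4 CCT and tubulin genes called lower became 1, 0, 0 and 0, the 0 mitochondrial ribosomal genes called higher became 0, 1, 0 and 0 and the 1 snoRNA host gene called lower became 2, 3, 0 and 1 without D3_Co replicate 1, D3_Co replicate 2, D3_Control replicate 2 and D3_Control replicate 3, in that order of libraries. MRPL46 was no longer called without D3_Co replicate 2, without D3_Control replicate 2 or without D3_Control replicate 3 (highest limma adjusted p then 0.0826). MRPS2 was no longer called when any 1 of the 4 libraries was left out (highest limma adjusted p then 0.156). Exons of EIF6, IPO4, MRPL46, MRPS2, SRSF2 and XPO5 overlap other genes, so these values are uncertain.

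In lists of mRNA decay, chromatin and repair, the shares called lay below the 24.3% of all tested genes, though for mRNA decay (21.4%) it was close. Of 28 tested AU-rich element and mRNA decay factors, 4 rose and 2 fell (median log2 difference 0.0043). Beside ZC3H12A, ZFP36, which destabilises mRNAs with AU-rich elements, was at 18.5 and 19.6 FPKM in the D3_Co libraries, against 10.8 and 10.9 FPKM in the D3_Control libraries (log2 difference 0.76, SE 0.088, limma adjusted p = 0.00185). BTG2, which promotes deadenylation, differed by 0.66. UPF1, the helicase of nonsense-mediated decay, was at 25.5 and 24.5 FPKM in the D3_Co libraries, against 35.7 and 36.7 FPKM in the D3_Control libraries (log2 difference -0.52, SE 0.067, limma adjusted p = 0.0026). Of 38 tested Polycomb and trithorax genes, 3 rose and 2 fell (median log2 difference -0.019). The PRC1 subunits PHC2 and CBX7 differed by 0.86 and 0.81, with CBX7 at 3.71 and 3.96 FPKM in the D3_Co libraries, against 1.82 and 1.71 FPKM in the D3_Control libraries. Of 38 tested homologous recombination and Fanconi genes, 0 rose and 1 fell (median log2 difference -0.088), with 1 higher at an unadjusted limma p under 0.05. The gene that fell was H2AFX, the histone variant marked at DNA breaks, at 171 ± 11 FPKM in D3_Co and 234 ± 1.78 FPKM in D3_Control (log2 difference -0.45, SE 0.061, limma adjusted p = 0.00296). Of 389 tested genes with ZNF names, 15 rose and 40 fell (median log2 difference -0.086). Of those called, the highest was ZNF516 at 0.85 and the lowest ZNF239 at -0.54. The 2 mRNA decay factors called lower became 1, 3, 1 and 1, the 3 Polycomb and trithorax genes called higher became 3, 3, 5 and 3, the 15 ZNF genes called higher became 7, 5, 8 and 4, the 40 ZNF genes called lower became 14, 22, 16 and 8, the 2 Polycomb and trithorax genes called lower became 0, 1, 0 and 0, the 0 homologous recombination and Fanconi genes called higher became 0, 0, 0 and 1 and the 1 homologous recombination and Fanconi gene called lower became 1, 2, 1 and 2 without D3_Co replicate 1, D3_Co replicate 2, D3_Control replicate 2 and D3_Control replicate 3, in that order of libraries. ZNF239 was no longer called without D3_Co replicate 1, without D3_Co replicate 2 or without D3_Control replicate 3 (highest limma adjusted p then 0.0902). Exons of CBX7 and PHC2 overlap other genes, so these values are uncertain.

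The co-cultures of days 1 and 2 show how these genes stood before day 3. They have no control of their own day, so their levels are given as descriptions. WNT10B averaged 7.28, 8.38 and 5.46 FPKM in D1_Co, D2_Co and D3_Co, and 0.23 FPKM in D3_Control, and was thus already present on day 1. IL32 averaged 5.94, 15.7 and 16.3 FPKM in D1_Co, D2_Co and D3_Co, and 2.85 FPKM in D3_Control. LTB averaged 0.326, 1.36 and 3.12 FPKM in D1_Co, D2_Co and D3_Co, and 0.0806 FPKM in D3_Control. Both were lower on day 1 than on day 3 of co-culture. TNC averaged 20.6, 40.02 and 16.5 FPKM in D1_Co, D2_Co and D3_Co, and 4.72 FPKM in D3_Control, with its highest level on day 2. GAL averaged 356, 357 and 489 FPKM in D1_Co, D2_Co and D3_Co, and 133 FPKM in D3_Control. On the lower side, MT1G averaged 4.9, 6.48 and 14.2 FPKM in D1_Co, D2_Co and D3_Co, and 39.6 FPKM in D3_Control. All 3 co-culture days of MT1G lay below separate culture. MAT2A averaged 98.5, 91 and 52.5 FPKM in D1_Co, D2_Co and D3_Co, and 106 FPKM in D3_Control, and OTX2 23, 26.7 and 15.1 FPKM in D1_Co, D2_Co and D3_Co, and 31.2 FPKM in D3_Control. COX11 averaged 18.1, 20.9 and 6.23 FPKM in D1_Co, D2_Co and D3_Co, and 20.1 FPKM in D3_Control. MAT2A and COX11 were thus near the separate-culture level on days 1 and 2 and lower on day 3. Exons of COX11, IL32, MAT2A and TNC overlap other genes, so these values are uncertain.

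**Figure D4:**
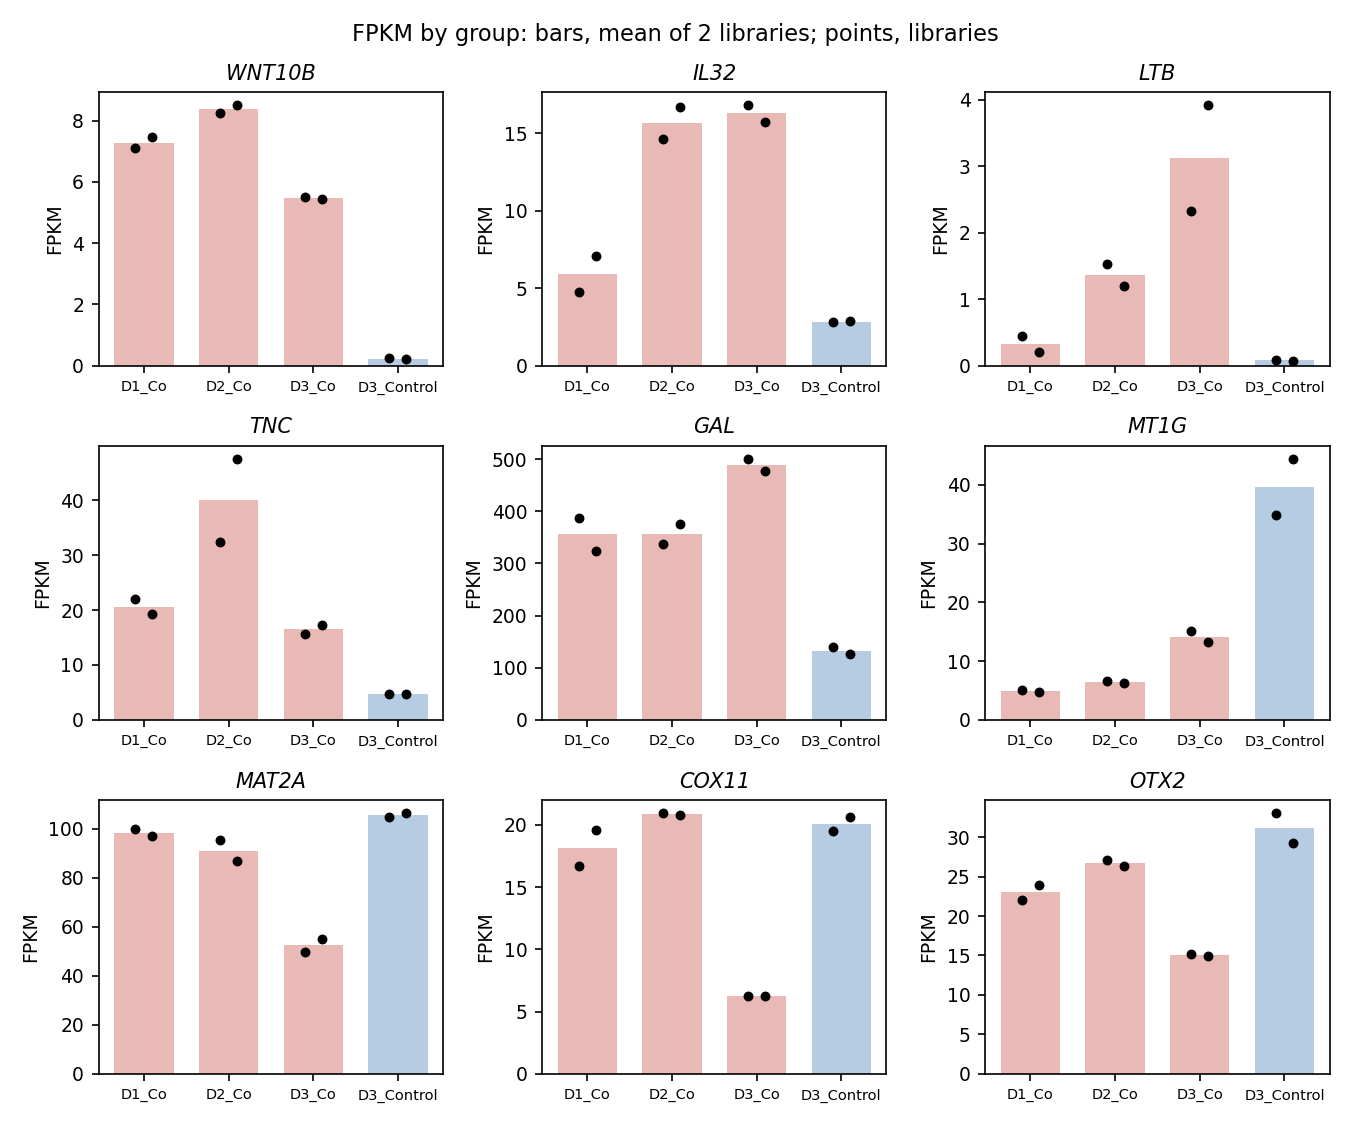
FPKM of 9 genes by group, with bars for the mean of 2 libraries and points for the libraries, co-culture days 1 to 3 in red and D3_Control in blue. WNT10B (5.46 FPKM in D3_Co, against 0.230 FPKM in D3_Control) is high on all co-culture days, LTB is highest on day 3, and COX11 and MAT2A are lower on day 3 of co-culture than in the other groups shown.

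Promoter letters differed between the called sets in several motifs. CACGTG, the E-box bound by MYC and by clock and lysosomal factors, stood in 7.08% of the 1314 promoters of genes called higher, in 14.3% of the 1135 promoters of genes called lower and in 10.3% of those of all tested genes. CCGGAAGT, an ETS-like motif, stood in 3.5%, 12.6% and 9.28% of the same sets. TGANTCA, an AP-1-like motif, stood in 6.16%, 3.26% and 4.17%, and in 13 of 102 promoters (12.7%) of genes called over 2-fold higher and 2 of 11 (18.2%) of genes called over 2-fold lower. TGATGNAA, an ATF4-like motif, stood in 2.05%, 0.705% and 1.47%, and TTTCCCGC, an E2F-like motif, in 2.13%, 3.52% and 2.71%. Over all 27305 promoters of the table the shares were 7.43% for CACGTG, 4.44% for CCGGAAGT, 7.76% for TGANTCA, 3.67% for TGATGNAA and 1.66% for TTTCCCGC. In the 102 promoters of genes called over 2-fold higher, CACGTG stood in 5.88%, CCGGAAGT in 0.98%, TGATGNAA in 2.94% and TTTCCCGC in 0.98%. In the 11 of genes called over 2-fold lower, CACGTG stood in 27.3% and the other 3 motifs in 0%. Both strands were searched, and overlaps between motifs were not removed. The median GC content of the promoters was 68.3% for genes called higher, 65% for genes called lower and 65.7% for all tested genes. Among genes called over 2-fold the order was reversed, with a median GC content of 63.8% for higher and 67.3% for lower genes. Its part in the motif shares was not tested.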

How the data were processed

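RNA of H9 cells was measured in 8 polyA libraries, 2 in each of 4 groups that the titles name. The authors deposited 1 table of FPKM with 45961 gene numbers, and all 8 value columns were mapped to libraries by name. HISAT2 2.1.0, StringTie 1.3.3b and GRCh38.p12 are in the submitters' processing notes, without settings, and the strand setting was not given in the sources used here. FPKM divides by the mapped fragments of a library, a number the table does not hold, so depth is unknown and no counting interval is given.

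Many deposited values stood on rows of other genes, and ACTB was listed at 0 in 7 libraries. The row order is that of gene number and value sorted together as text, with D1_Co replicate 2 supplying the row numbers. Each of the other 7 libraries was put back by an exact search among the orders this history permits, which minimised the log2 difference from D1_Co replicate 2, capped at 4 per row. All 7 had a permitted order, against 0 of 7 under each of 2 other sort rules, and ACTB then lay between 5852 and 7930 FPKM. The correlation across genes between libraries of a group was then 0.992 in D3_Co and 0.994 in D3_Control, which the search itself favours. A common reference can make differences on moved rows too small. Of 12448 tested rows, 7967 were in place throughout and 3967 were moved in a day 3 library. The search was rerun 10 times on a randomly changed reference (SD 0.5), and the 556 rows that then changed by over 0.25 (log2) are called unsettled.

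A row was tested if it averaged at least 1 FPKM over the 8 libraries. Its name and gene number also had to match in a RefSeq gene table, which left out 655 rows. The test was limma 3.58.1 (R 4.3.3) on log2(FPKM + 1), with the 4 groups of all 8 libraries in a single fit (4 residual and 3.19 prior degrees of freedom, intensity trend), the contrast D3_Co against D3_Control, and Benjamini-Hochberg adjustment, with calls under 0.05. No count test was run, since the values are not counts. The script was tested on simulated data. Named genes were the 20 highest and 20 lowest called genes with at least 5 FPKM in the higher group on settled rows, called genes with under 0.5 FPKM in one day 3 group and at least 2 in the other, the 10 most abundant called genes, and, from each of 47 lists, up to 4 called members. Other members named for their role were chosen after their values were seen, and 3 genes and 1 list are not reported here. The comparison and the lists were chosen with earlier results of these data known. Coordinates and exon overlaps are from GENCODE v29 on GRCh38, and promoters from RefSeq on GRCh38.p14.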

Additional observations from a re-analysis of the deposited data

How the results depend on the processing

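Leaving out 1 library gave 1605 to 1849 genes called, 952 to 1066 higher, 608 to 783 lower and 148 to 168 over 2-fold. The 4 fits differ from the full one by construction in having fewer samples. With only rows in place, 1878 genes were called, 1009 higher, 869 lower and 81 over 2-fold, and with genes whose exons overlap no other gene, an alternative chosen after seeing the data, 1670, 990, 680 and 93. Both leave fewer genes to test. A mean of at least 5 FPKM, which removes low genes, gave 1099 higher, 1267 lower and 91 over 2-fold, so that 46.4% of calls were higher in co-culture, against 55.6% in the main analysis. The number over 2-fold was 314 with a pseudocount of 0.1, 40 with a pseudocount of 5, and 843 with rows as deposited.

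The replicate number as a block gave 1816 genes called, 1050 higher and 766 lower. The day 3 groups share only number 2, and the deviations of its 2 libraries from their group means correlated at -0.0234. With 2 libraries a group, each deviation depends equally on the other library of its group. This value therefore cannot show whether number 2 marks a shared batch, and the labels do not give batches. No paired analysis was possible because the day 3 groups share fewer than 2 numbers.

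With rows as deposited, 19 named genes turned in direction, since values then stand on other genes. Their log2 differences were -0.016 for DDIT4, -0.21 for ATF3, -0.89 for RND1, -3.99 for SLC6A6, -0.022 for F3, -1.88 for KCNMA1, -4.82 for COL1A1, -1.77 for TUBB4A, -0.14 for NFIL3, -2.12 for ARNTL, 1.60 for NUP214, 4.52 for EIF2B1, 0.92 for EIF6, 0.88 for MRPL32, 0.53 for H2AFX, 0.052 for MRPL1, 0.24 for SALL3, 6.07 for ERBB2 and 6.14 for MT2A. No named gene turned under the other alternatives, but calls were lost: of 204 named genes called, 29 to 43 when 1 library was left out, 30 with the replicate block, 24 with no filter, 16 with only day 3 libraries, 14 with quantile normalization and at most 9 under each other alternative, beside 41 of 200 with rows as deposited. Median-of-ratios scaling, quantile normalization, no filter, the filter on day 3 groups, only day 3 libraries, unsettled rows left out, rows with any name, a median reference and no intensity trend kept all 4 counts within 1.5 times. Leaving out 1 library could not turn a called gene, since its groups did not overlap. Depth is unknown, so low levels carry an error that could not be stated.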

Other observations

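Classes of RNA and chromosomes were compared by the share of genes called and the median log2 difference (D3_Co minus D3_Control), as descriptions. Of 11602 tested protein-coding genes, 25.3% were called, against 16% of 381 long noncoding RNA genes. Among 141 small nucleolar RNA genes 4.26% were called, and their median difference was -0.16. In the same genes the median of D3_Co replicate 1 minus D3_Co replicate 2 was -0.31, a larger gap than that between the groups. Small nucleolar RNAs carry no polyA tail, so a polyA library holds few of them. Median differences by chromosome lay between -0.046 for chromosome 19 and 0.055 for chromosome 4.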
